A study of Mus musculus with 4 samples.

Results

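Ctsd, Ctso, Psap and Fuca1 encode 3 hydrolases of the lysosome and the precursor of its lipid-binding activator proteins. They were followed spot by spot on 4 two-colour cDNA arrays of mouse spinal cord. The 4 genes were looked up by symbol in the platform's clone annotation and had 5 spots, out of 10225 genes and 18511 spots with a single gene. Ctsd had 2 spots, which carried the same clone, and Ctso, Psap and Fuca1 had 1 spot each. No spot assigned to several genes included any of them. The genes were selected on measured ratios of these arrays: Fuca1 and Psap had the highest and second highest ratio on control array 1 among the 5429 genes with values on all 4 arrays, and Ctsd was among the low genes of AT-EAE array 1. Which values chose Ctso is not stated. All ratios of the 4 genes are therefore given as a description, without a test.

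All mice were adult SJL/J females, a strain that is susceptible to autoimmune demyelination, and they either had AT-EAE or were controls. AT-EAE is the adoptive-transfer form of experimental autoimmune encephalomyelitis, in which T cells that react to myelin are given to a recipient mouse. RNA was extracted from pooled cords of 2 mice. An array held 2 such extracts of the same group, one per channel: AT-EAE extracts 1 and 2 on AT-EAE array 1, AT-EAE extracts 3 and 4 on AT-EAE array 2, and likewise for control extracts on control arrays 1 and 2. The sources used here do not state the treatment of the control mice or the stage of disease. A value is thus the log2 ratio between 2 extracts of 1 group and holds no AT-EAE to control difference in level. The base of 2 was assumed. Which channel is the numerator is not stated either, so a sign places a gene only relative to other genes of that array. In bulk cord, fewer cells of a type and less RNA per cell cannot be told apart.

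Lysosomes break down proteins, sugars and lipids that arrive by endocytosis, phagocytosis and autophagy. Most of their soluble hydrolases are tagged with mannose 6-phosphate and brought there by sorting receptors. Microglia and macrophages use them to digest myelin debris in demyelinating tissue, while neurons and glia depend on them to turn over their own membranes. Cathepsin D, the product of Ctsd, is the main aspartic protease of lysosomes. Prosaposin, the product of Psap, is cut, in part by cathepsin D, into the saposins, which present sphingolipids to their hydrolases. Fuca1 encodes the alpha-L-fucosidase that removes fucose from glycoproteins and glycolipids, and Ctso a papain-like cysteine protease.

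Many lysosomal genes carry a CACGTG box near their start, the core of the CLEAR element to which the transcription factor TFEB binds. Of the 4 genes, only Ctsd had this box in the 250 bases before its start, in the RefSeq promoter table of build GRCm38.p6. The window, at chr7:142387828-142388077 on the minus strand, is shown for its 2 boxes, which are in capitals.
Ctsd: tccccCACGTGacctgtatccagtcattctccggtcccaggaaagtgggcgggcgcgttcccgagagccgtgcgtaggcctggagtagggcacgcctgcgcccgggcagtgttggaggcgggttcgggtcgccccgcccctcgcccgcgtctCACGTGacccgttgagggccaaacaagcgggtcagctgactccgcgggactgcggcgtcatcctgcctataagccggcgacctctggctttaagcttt

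The box centres lie 242 and 95 bases before the start, and the nearer one reads TCACGTGA with its flanking bases. Both motifs are palindromes, so 1 search covers both strands, and every TCACGTGA also counts as a CACGTG. Windows of the same length were searched for 115 lysosomal genes listed by role, of which the table held 92. CACGTG was found in 22 of these 92 genes (23.9%), against 6.86% of the 27025 genes in the table. TCACGTGA was found in 9 of them (9.78%), against 0.907%. A match describes the letters in this window and not a bound site, and the array data do not bear on binding.

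The first question was on which arrays each gene had a value. The 2 Ctsd spots and the spots of Psap and Fuca1 had values on all 4 arrays, as did 39.9% of all spots with 1 gene. The Ctso spot had a value on both AT-EAE arrays and on neither control array. This pattern was rare, with 42 of 18511 spots (0.227%). All 5 spots of the 4 genes had a value on each AT-EAE array, against 61.7% and 42.1% of spots on AT-EAE arrays 1 and 2. On each control array 4 of the 5 had one, against 80.9% and 72.9% of spots on control arrays 1 and 2. The genes were chosen on measured ratios, which need values, so nothing is read from these shares. Which values chose Ctso is not stated, so nothing is read from the rarity of its pattern either. What removed a spot's value is not stated, so the missing Ctso values do not show that its signal was lower in control cord.

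Other listed lysosomal genes were read for the same pattern. Of the 115 genes, 88 were on the arrays and 60 had values on all 4. Values on both control arrays and neither AT-EAE array, the reverse of the Ctso pattern, were found for 10 of the 88, a share near the 9.14% of all genes. They include the alpha-galactosidase gene Gla, the beta-mannosidase gene Manba, the sialidase gene Neu1 and the cysteine protease inhibitor gene Cstb. Ctso was the 1 gene of the 88 with values on both AT-EAE arrays and neither control array, a pattern of 0.127% of all genes. The cathepsin genes Ctsh and Ctsw had a value on control array 1 alone, and Hyal1, Acp5 and Atp6v0a1 had none on any array.

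Over the whole list, 81.8% and 70.5% of genes had a value on AT-EAE arrays 1 and 2, against 94.3% and 89.8% on control arrays 1 and 2. For all 10225 genes these shares were 72.4% and 54.9% in AT-EAE and 86.2% and 80.1% in control. Glycosidase genes, the role to which Fuca1 belongs, had values for 64.3% and 50% of 14 genes on the AT-EAE arrays and for 92.9% and 85.7% on the control arrays. Protease genes, with Ctsd and Ctso, had values for 84.6% of 13 genes on both AT-EAE arrays, and for 92.3% and 76.9% on the control arrays. Genes of lysosomal membrane proteins had them for 100% and 81.8% of 11 genes in AT-EAE and 90.9% and 100% in control.

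**Figure D1:**
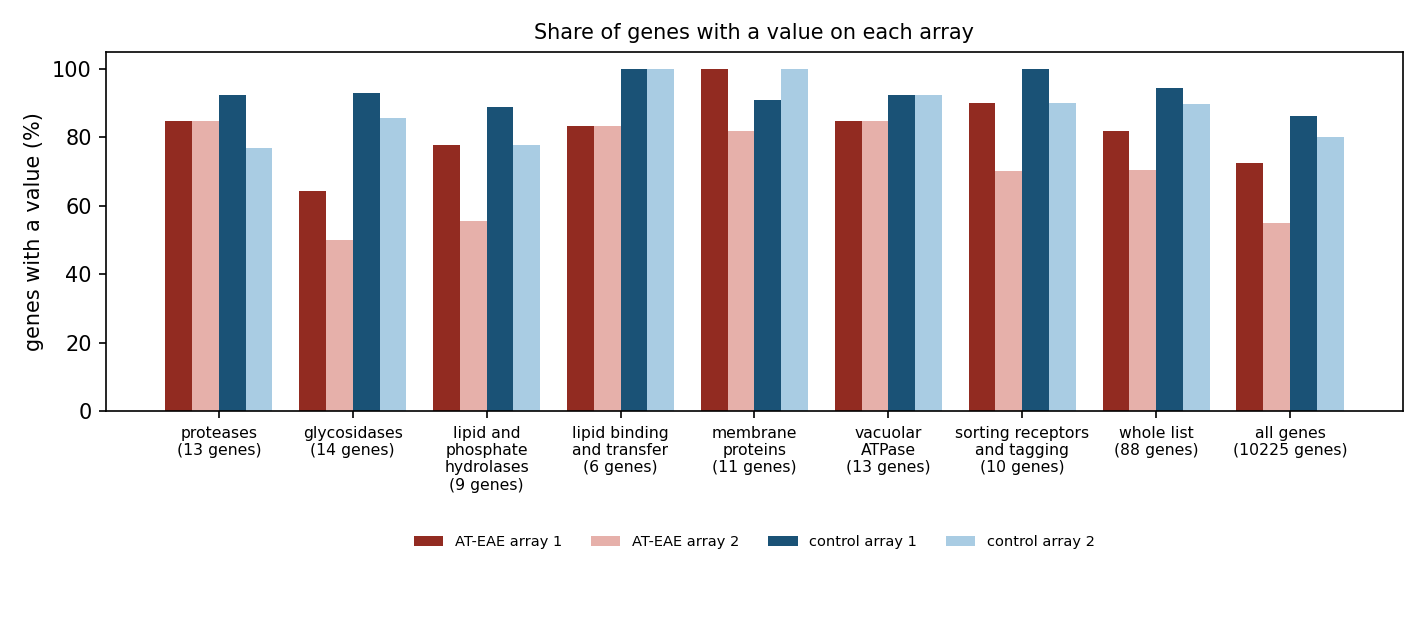
Share of genes with a value on each array (percent), for the roles of the lysosomal list with at least 6 genes on the arrays, for the whole list and for all genes; each bar is 1 array. Glycosidase genes have values for 64.3% and 50% on the AT-EAE arrays, and protease genes for 84.6% on both.

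The next question was by how much the paired extracts differed in each gene. From every ratio the median of all genes on that array was subtracted, which lay between -0.07 and 0.01. Pairs of spots of the same clone, 46 to 50 per array, gave a standard deviation of a single spot of 0.20 and 0.24 on AT-EAE arrays 1 and 2, and of 0.20 and 0.25 on control arrays 1 and 2. This is technical error within an array. It does not cover differences between dyes, which every spot of a clone shares. None of the 4 genes was as much as 2-fold from the median of any array. Such genes made up 0.378% and 1.03% of all genes on AT-EAE arrays 1 and 2 and 0.125% and 0.403% on control arrays 1 and 2.

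Ctsd, the protease, lay below the median on both AT-EAE arrays and above it on both control arrays. Its spots 1 and 2 had log2 ratios of -0.79 and -0.62 on AT-EAE array 1, and in AT-EAE array 2 these were -0.22 and -0.51. On control array 1 they were at 0.17 and 0.19, and on control array 2 at 0.06 and 0.17. The 2 spots lay on the same side of the median on each array and differed by 0.02 to 0.29. On AT-EAE array 1 the gene's mean of -0.71 was a 1.63-fold difference between extracts 1 and 2 and ranked 36th from the lowest of 5429 genes. The mean of -0.36 on AT-EAE array 2 and those of 0.18 and 0.12 on control arrays 1 and 2 were nearer the bulk of genes, at -1.09, 1.03 and 0.51 robust standard deviations of their arrays (the median absolute deviation scaled to a normal spread). Opposite sides of the median in the 2 groups were found for 7.7% of the 5429 genes. Extract numbers are arbitrary, so this does not order the groups by Ctsd level.

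Psap, the saposin precursor gene, lay outside the middle 50% of spots on all 4 arrays. Its spot was at -0.52 and 0.52 on AT-EAE arrays 1 and 2, against 0.78 and 0.58 on control arrays 1 and 2. It thus lay above 3.62% and 90.3% of spots with 1 gene on the AT-EAE arrays and above 99.9% and 99.2% of them on the control arrays. The ratios on both AT-EAE arrays were 1.44-fold and 1.43-fold in size and opposite in sign. Those on control arrays 1 and 2 were 1.72-fold and 1.49-fold and had the same sign. Each was at least 2.21 times the standard deviation of a same-clone spot on its array.

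Fuca1, the fucosidase, stood out on 1 array. Its spot was at -0.16 and -0.36 on AT-EAE arrays 1 and 2, against 0.80 and -0.15 on control arrays 1 and 2. The ratio on control array 1, a 1.74-fold difference between control extracts 1 and 2, was 4.03 times the standard deviation of a same-clone spot. On the other arrays it was 0.81, 1.52 and 0.58 times that deviation in size.

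Ctso, the papain-like protease, lay above the median on both arrays where it had a value. Its spot was at 0.26 and 0.18 on AT-EAE arrays 1 and 2, or 1.32 and 0.77 same-clone standard deviations from the median. It was above 92.4% and 67.2% of spots with 1 gene on these arrays. There was no control ratio to set beside these. On both AT-EAE arrays Ctso lay above Ctsd, with Ctsd minus Ctso at -0.97 and -0.54.

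**Figure D2:**
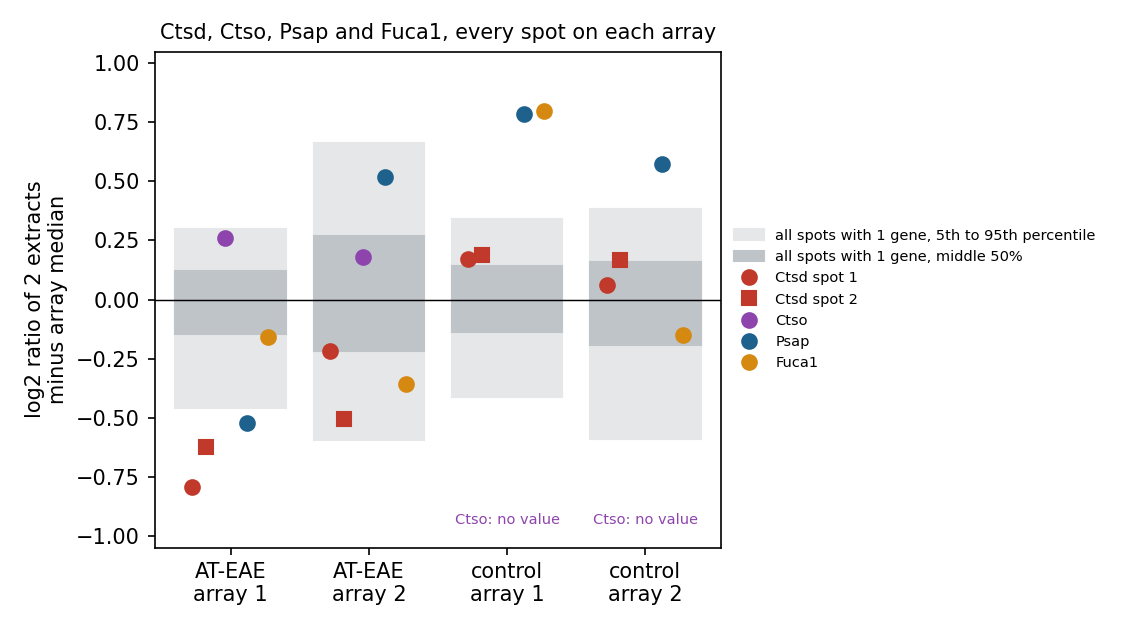
Log2 ratio between the 2 extracts of each array, relative to the array median, for the 5 spots of Ctsd (circle and square), Ctso, Psap and Fuca1; grey boxes span the middle 50% and the 5th to 95th percentile of all spots with 1 gene. Both Ctsd spots lie below 0 on the AT-EAE arrays and above it on the control arrays, and Psap and Fuca1 stand out together on control array 1, at 0.78 and 0.80.

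At 3 robust standard deviations or more were Ctsd and Psap on AT-EAE array 1 and Psap and Fuca1 on control array 1. That distance was reached by 3.05% and 1.03% of all genes on AT-EAE arrays 1 and 2, and by 2.32% and 2.13% on control arrays 1 and 2. The genes were chosen on measured ratios, so nothing is read from this count.

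The 4 genes did not keep 1 order across arrays. Ctsd was below Psap on each of the 4, with Ctsd minus Psap at -0.18 and -0.88 on AT-EAE arrays 1 and 2 and at -0.60 and -0.46 on control arrays 1 and 2. From same-clone spots, the standard deviations of these differences were 0.24, 0.29, 0.24 and 0.31, so the gap on AT-EAE array 1 was within the error. Psap minus Fuca1 was -0.36 and 0.88 on AT-EAE arrays 1 and 2, and -0.01 and 0.72 on control arrays 1 and 2. Its standard deviations were 0.28 and 0.33 on the AT-EAE arrays and 0.28 and 0.36 on the control arrays, so both genes were within the error of each other on control array 1.

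The size of a ratio, with its sign set aside, does not depend on which channel was the numerator. For Ctsd the mean size was 0.54 ± 0.24 on the AT-EAE arrays, against 0.15 ± 0.05 on the control arrays (log2, SD, n = 2 arrays each). Psap had 0.522 ± 0.003 on the AT-EAE arrays and 0.68 ± 0.15 on the control arrays. Fuca1 had 0.26 ± 0.14 on the AT-EAE arrays and 0.47 ± 0.46 on the control arrays. Over the 5429 genes with values on all 4 arrays the median size was 0.18 for AT-EAE extracts and 0.14 for control extracts. For Ctsd the sizes on both AT-EAE arrays were above those on both control arrays, as for 19.4% of these genes. For Psap they were below, as for 11.1% of them, and for Fuca1 the groups overlapped. Such separation is common, so nothing is read from it. The Fuca1 means rest on single arrays, with 0.16 without AT-EAE array 2, and 0.15 without control array 1 or 0.80 without control array 2. No test was run, since the genes were chosen on these ratios.

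Other lysosomal genes were then read on the same arrays. The list median was -0.09 and 0.17 on AT-EAE arrays 1 and 2, against 0.05 and 0.07 on control arrays 1 and 2, beside 0 over all genes by construction. In the same order 48 of 72, 19 of 62, 31 of 83 and 29 of 79 genes lay below the array median. Without Ctsd, Ctso, Psap and Fuca1 the list medians were -0.09, 0.18, 0.05 and 0.06.

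On AT-EAE array 1, where Ctsd and Psap were low, 6 of the 72 listed genes were at least 1.5-fold from the median, and all 6 lay below it. Of all genes there, 2.15% were this far from the median and 1.93% were this far below it. Besides Ctsd the 6 were the heparan sulfatase gene Sgsh at -0.95, the acid lipase gene Lipa at -0.83, the second fucosidase gene Fuca2 at -0.78, the macrophage lysosomal membrane gene Cd68 at -0.77, and Ppt1, which encodes a thioesterase that removes fatty acids from proteins, at -0.61. These 6, and Ctsb and Ctss below, were picked after their values were seen, except Ctsd and Ppt1. Sgsh, Lipa, Fuca2 and Cd68 had no value on AT-EAE array 2. On control array 1, where Ctsd was at 0.18, Sgsh was at -0.56, Lipa at -0.34 and Fuca2 at -0.81, and Cd68 had no value. Sgsh, Lipa and Fuca2 thus lay on the opposite side of the median from Ctsd on control array 1. Cd68 could not be compared there, and was at -0.28 on control array 2, where Ctsd was at 0.12. Of the 60 genes with values on all 4 arrays, the lowest 3 on AT-EAE array 1 were Ctsd, Ppt1 and Psap. The highest 3 were the proton pump gene Atp6v1h at 0.31, the acid sphingomyelinase gene Smpd1 at 0.27 and Laptm4b at 0.21. Of 11 protease genes 9 were below the median, among them Ctsb at -0.29 and Ctss at -0.28, while Ctso was the highest of them at 0.26.

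On AT-EAE array 2 most listed genes lay above the median, whereas Ctsd and Fuca1 lay below it. The mannose 6-phosphate receptor gene M6pr was at 0.74 and Igf2r, which encodes the other such receptor, at -0.75. The chloride transporter gene Clcn7 and the proton pump gene Atp6v1a were at 0.65 each. Gm2a, whose product like the saposins presents a sphingolipid to its hydrolase, was at -0.55, and the beta-galactosidase gene Glb1 at -0.36, beside Psap at 0.52. Among the 11 protease genes 9 lay above the median, and Ctsd was the lowest at -0.36. In all, 5 of 62 listed genes were at least 1.5-fold from the median, against 9.53% of all genes.

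On control array 1, Fuca1 and Psap were the highest of the 60, followed by the progranulin gene Grn at 0.50, whose product binds prosaposin. The lowest were Lamp1, a main lysosomal membrane protein, at -0.44, Atp6v1e1 at -0.29 and Clcn7 at -0.22. Fuca2 had the opposite side from Fuca1 on this array, at -0.81. On control array 2 Psap was highest, with Gm2a and Grn at 0.42 each, and Atp6v1e1 was lowest at -0.73, with Gga1 at -0.44 and Scpep1 at -0.34. At least 1.5-fold from the median were 3 of 83 listed genes on control array 1, where Fuca1 and Psap were 2 of the 3, and 2 of 79 on control array 2. The shares over all genes were 1.68% and 3.33%.

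**Figure D3:**
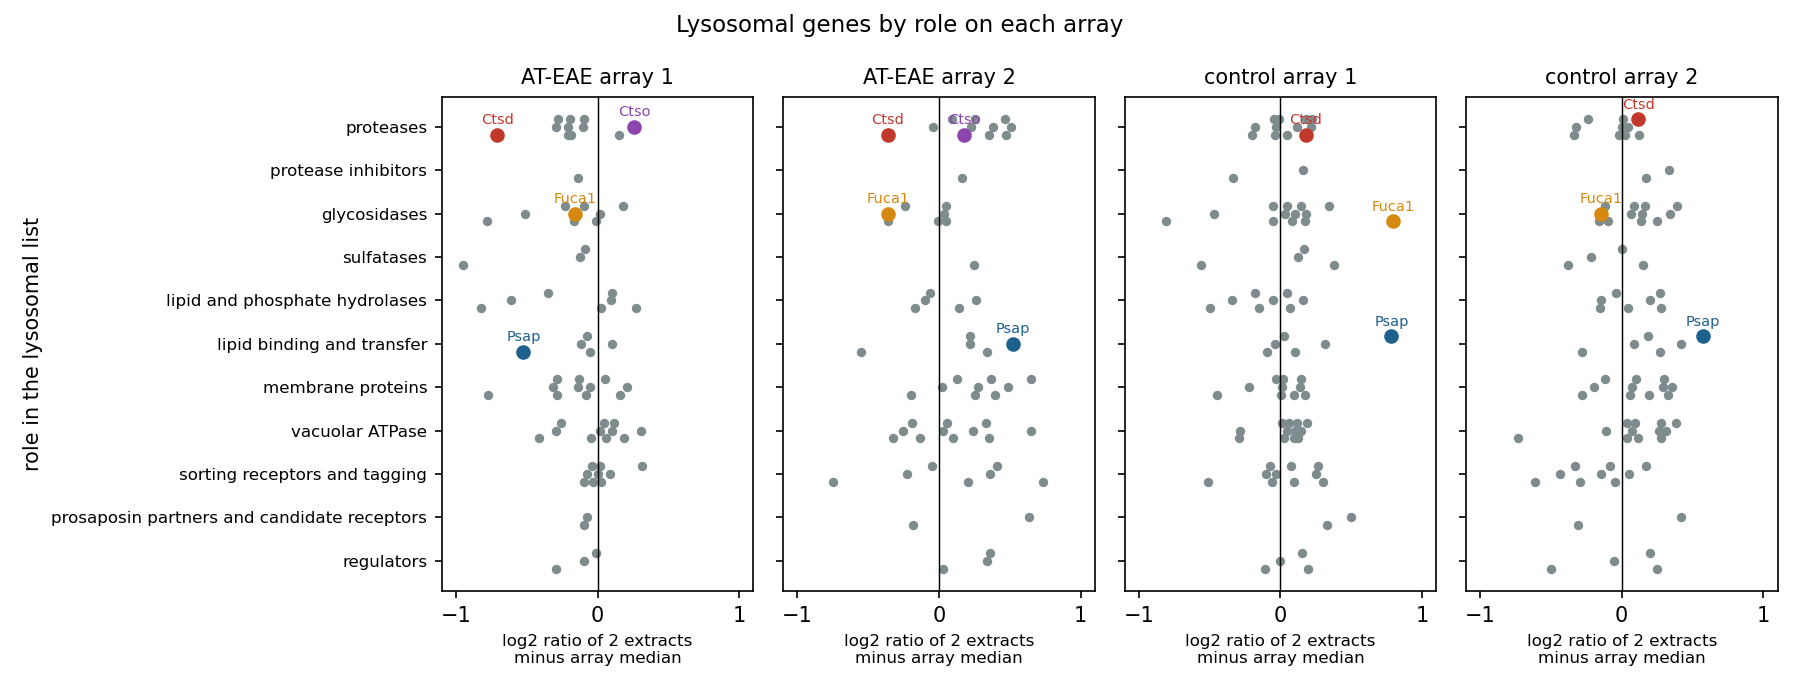
Log2 ratio between the 2 extracts, relative to the array median, for each listed lysosomal gene with a value (points), by role (rows) and array (panels); Ctsd, Ctso, Psap and Fuca1 are coloured. On AT-EAE array 1 the scatter extends to the left, from -0.95 to 0.31, with 48 of 72 genes below 0. On AT-EAE array 2 it spans -0.75 to 0.74, with 19 of 62 genes below 0.

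Markers of microglia and macrophages, which are rich in lysosomes, were read on the same arrays. Of 20 listed markers 14 were on the arrays. On AT-EAE array 1, 11 of 12 with a value lay below the median, at a list median of -0.26 and a range of -1.02 to 0.03, beside the low Ctsd and Psap. The list median was -0.01 on AT-EAE array 2, and 0.01 and 0.06 on control arrays 1 and 2. The lysozyme gene Lyz2 was lowest on AT-EAE array 1, at -1.02. Cd68 and Laptm5, which the lysosomal list also holds, were at -0.77 and -0.29 there, so both lists share these values. Of the other cord cell types, 3 of 3 oligodendrocyte and myelin markers lay below the median there, at a list median of -0.22, as did 4 of 6 astrocyte markers, at -0.10, and 3 of 5 neuron markers, at -0.09. The part of any of these cell types in the Ctsd and Psap ratios was not tested. On control array 1, where Psap and Fuca1 were high, 6 of 6 astrocyte markers lay above the median, at a list median of 0.13, as did 3 of 4 oligodendrocyte and myelin markers, at 0.11, and 6 of 11 macrophage markers, at 0.01. There 2 of 5 neuron markers lay above it, at a list median of -0.09. On control array 2, with Psap at 0.58, 3 of 6 astrocyte and 0 of 3 oligodendrocyte and myelin markers lay above the median. Their list medians were -0.03 and -0.10. There 3 of 5 neuron and 8 of 12 macrophage markers lay above it. Psap was also high on AT-EAE array 2, at 0.52. The counts there were 4 of 5, 2 of 3, 1 of 4 and 5 of 10, in the same order. The part of these cell types in the Psap and Fuca1 ratios was not tested either. Of the cord tissue markers on the arrays, 5 of 5 neuron and 6 of 6 astrocyte markers had values on AT-EAE array 1 and both control arrays, and 4 and 5 of them on AT-EAE array 2. Of 4 oligodendrocyte and myelin markers 3 had values on each array except control array 1, where all 4 did, and Olig2 had a value there alone. Of the 14 macrophage markers 12 and 10 had values on AT-EAE arrays 1 and 2, against 11 and 12 on control arrays 1 and 2, and Ptprc had none. Of 9 skeletal muscle markers 5 were on the arrays, with values for 3 on each AT-EAE array and 4 on each control array, so a value does not show that a cell type is abundant. Of 10 T cell markers 1, Cd4, was on the arrays, and it had no value on any of them.

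The genes whose ratios were most like those of each gene were sought among 1557 genes with at least 2 valued spots on every array, by the root mean square difference over the 4 arrays. For Ctsd these were Ppt1 at 0.15, Mpeg1, a macrophage-expressed pore protein gene, at 0.20, and Chmp5, the Fc receptor gene Fcgr3 and the ribosomal protein gene Rpl7 at 0.21 each. The median difference of all genes compared was 0.45. Ppt1, which belongs to the lysosomal list, was at -0.61 and -0.17 on AT-EAE arrays 1 and 2 and at 0.05 and -0.04 on control arrays 1 and 2. Among the 1557 genes Psap had no neighbour as near. Its nearest genes were Chtop and Pld3 at 0.33 each, Vcp at 0.36, Commd1 at 0.38 and Anxa5 at 0.40, against a median of 0.61. Pld3, which encodes a lysosomal nuclease, was at -0.30 and 0.28 on AT-EAE arrays 1 and 2 and at 0.37 and 0.18 on control arrays 1 and 2. For Fuca1 they were Mast2 at 0.25, Supt6, Tjap1 and Ctps2 at 0.28 each and Chd3 at 0.29, against a median of 0.49. None of these 5 is on the lysosomal list. Ctso, with values on 2 arrays, was not compared. Listed lysosomal genes with 1 spot, such as Laptm4a, Grn and Gm2a, were outside the 1557 and could not appear as neighbours. Likeness over 4 ratios is a description, and its cause was not tested.

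**Figure D4:**
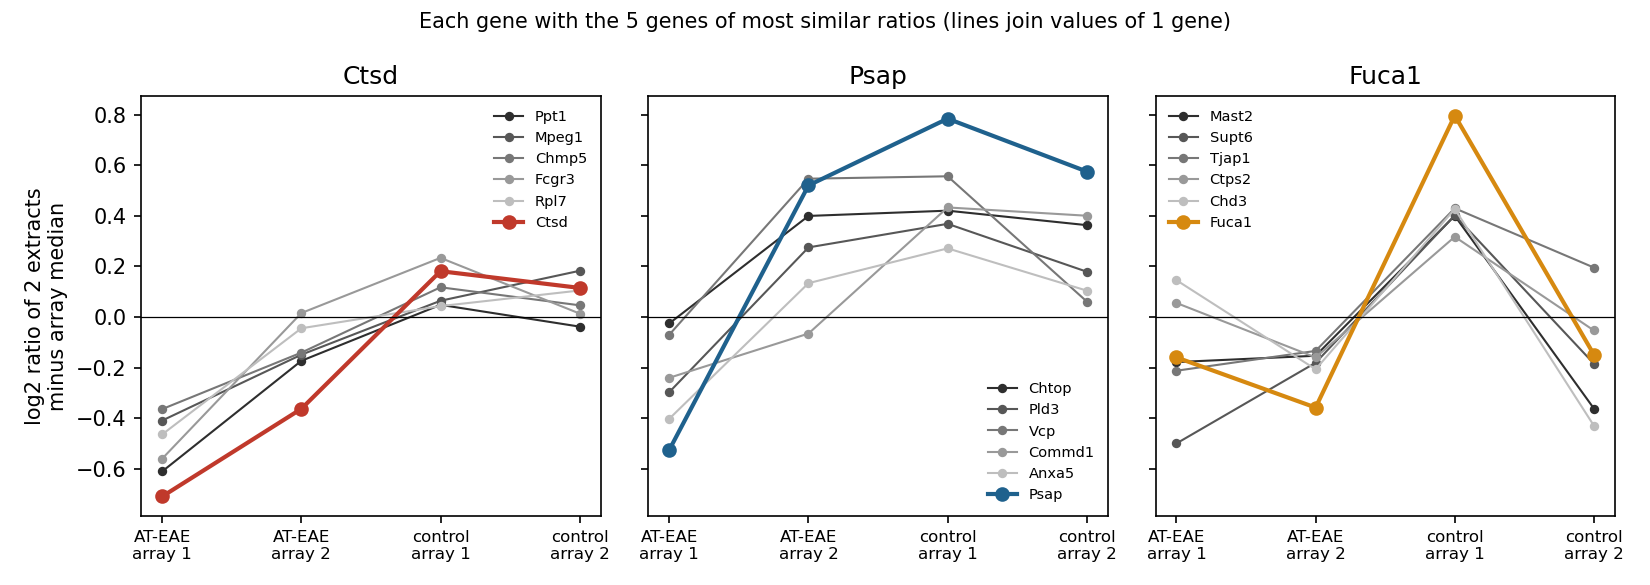
Log2 ratio relative to the array median on each of the 4 arrays for Ctsd, Psap and Fuca1 (coloured) and for the 5 genes nearest to each (grey). The neighbours of Ctsd are all below 0 on AT-EAE array 1, with Ppt1 nearest at -0.61. They were picked for likeness on these same arrays, so this is no separate result. Fuca1, at 0.80, was the highest of the 5429 genes with values on all 4 arrays on control array 1, so no neighbour could reach it.

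Ratios of some arrays were correlated. Over all spots with a value on both arrays, Pearson's r was 0.35 between AT-EAE array 1 and control array 2, 0.32 between AT-EAE array 2 and control array 1, and between -0.01 and 0.20 for the other pairs, although no extract was shared. The part of a dye effect in the ratios of the 4 genes was not tested.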

How the data were processed

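The deposited table gives 1 value per spot and array, read as a log2 ratio of both channels. Per the labels, normalized green and red signals were compared. The values are signed and centred near 0, and base 2 was assumed. The sources used here do not give the normalization method, the spot filter, the scanner settings or the channel in the numerator. Every value column was 1 of the 4 arrays (columns of no sample: 0). Signal over background was not analysed here, and the number of arrays limits the precision.

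Of 28704 spots per array, 18511 had 1 gene, 937 several and 9256 none in the annotation of the array platform. By gene identifier, 18267 spots took their symbol from the gene table of build GRCm38.p6, and 244 kept the annotated one. Spots of a gene were averaged, and the median of all genes on that array was subtracted. Spots with a value numbered 15635 and 10788 on AT-EAE arrays 1 and 2 and 21139 and 18565 on control arrays 1 and 2. Robust standard deviations over genes (median absolute deviation times 1.4826) were 0.17, 0.33, 0.18 and 0.23 in that order.

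No test was run. The genes, the lysosomal list and the marker lists were chosen with earlier results of these data known. Of the list, the 3 highest and 3 lowest genes per array among those with values on all 4 were named, and the 5 genes most like each gene. Alternatives were other ways to join spots, other centring, other thresholds and the omission of single arrays. The summaries were checked on simulated data. Python 3.11.15 with numpy 2.4.6, pandas 2.3.3 and matplotlib 3.10.9 was used.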

Additional observations from a re-analysis of the deposited data

Results flagged for a closer look

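Ctsd lay below the array median on both AT-EAE arrays, at -0.71 and -0.36, and above it on both control arrays, at 0.18 and 0.12. The mean of the AT-EAE arrays minus that of the control arrays was -0.68 (log2). The difference was not tested, and since each array compares 2 extracts of 1 group with arbitrary numbers, it is no difference in Ctsd level between AT-EAE and control cord.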

How the results depend on the processing

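The 54 values of the 4 genes recomputed with the median over spots, with other centring or with spots valued on all 4 arrays moved by at most 0.07 and kept their sign. Turning the sign on every array was not run, as it changes only the direction of each value. With 2 arrays per group, leaving out 1 array leaves the absolute ratio of the other. For Ctsd this gave 0.36 to 0.71 in AT-EAE and 0.12 to 0.18 in control, for Psap 0.520 to 0.524 and 0.58 to 0.78, for Fuca1 0.16 to 0.36 and 0.15 to 0.80, and for Ctso 0.18 to 0.26 in AT-EAE. At 1.5-fold in place of 2-fold, the count of listed lysosomal genes was 6 and 5 on AT-EAE arrays 1 and 2 and 3 and 2 on control arrays 1 and 2, each 0 at 2-fold. At 3 robust standard deviations it was 7 and 0 on the AT-EAE arrays and 4 and 1 on the control arrays. These are counts of 72, 62, 83 and 79 listed genes with a value, in the same order. Without Ctsd, Ctso, Psap and Fuca1 they were 5, 5, 1 and 2 at 1.5-fold and 5, 0, 2 and 1 at 3 robust standard deviations. Of all genes, 2.15%, 9.53%, 1.68% and 3.33% reached 1.5-fold, and 3.05%, 1.03%, 2.32% and 2.13% reached 3 robust standard deviations. The list median on control array 2 was 0.0524 with the median over spots and 0.0529 with genes of at least 2 valued spots, against 0.0685. No other list median moved by more than the standard deviation of the 2 array medians of its group. Spots of several genes added none to the 4 genes. No paired analysis was possible because no result comes from a test and the extract numbers are arbitrary. With 1 spot each for Ctso, Psap and Fuca1, and 2 arrays per group, single ratios carry no replicate error of their own.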
